A study of Mus musculus with 4 samples.

Results

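The 10 genes described here drive or restrain the cell cycle, and they were taken by symbol from the 32227 genes listed for the islet libraries: the division markers Mki67 and Top2a, the D-type cyclins Ccnd1, Ccnd2 and Ccnd3, their kinase Cdk4, and the inhibitors Cdkn1a, Cdkn1b, Cdkn1c and Cdkn2a. The libraries hold single islet cells of adult mice, and the study names the backcross strain as C57Bl/6j in one place and CBA/BL6j in another. Mutant mice (Myt3IM/IM) are homozygous, in every cell of the body, for a 12-bp insertion made with CRISPR-Cas9 in an exon of Myt3, a zinc finger transcription factor gene of islets, which removes the overlap between an upstream open reading frame and the main one. All mutants descend from 1 edited line, and control mice carried the wild-type allele on both chromosomes. In the labels the diet is normal and the platform PIPseq, whereas the study's methods give a high-fat diet (HFD) for the single-cell work and inDrop-Seq. By the methods each library pooled islets of several animals of both sexes. The study's results, before the single-cell part, state that the HFD work turned to male mice. Which of these applies was not settled here. Expression was analysed in 2 mutant libraries and 1 control library (control 2), and control 1 was not analysed here.

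Entry into the cell cycle turns on D-type cyclins, which bind and activate Cdk4 or Cdk6 so that the retinoblastoma proteins are phosphorylated and E2F factors released. The Cip/Kip inhibitors (p21 of Cdkn1a, p27 of Cdkn1b and p57 of Cdkn1c) bind cyclin and kinase complexes, and the Ink4 inhibitor p16 of Cdkn2a binds Cdk4 and Cdk6. Adult β cells divide rarely, Ccnd2 and Cdk4 are needed for their growth after birth in mice, and Cdkn2a rises in them with age. Mki67 encodes the Ki67 antigen and Top2a a DNA topoisomerase, and both are transcribed mainly in S, G2 and M phases.

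The bases before the start sites of 3 members are shown because Mki67 and Top2a mark the dividing cells counted below and Cdk4 was the member with the highest ratio to the control library among those common enough to be counted in β cells. They are the 250 bases upstream of the RefSeq start, 5′ to 3′ on the gene's strand, in build GRCm38.p6, which is not the GRCm39 build that the submitters name, and 7 of the 10 members had an entry. Capitals mark TTTGAA (the core of the cell cycle homology region), CCAAT, the E2F words TTTCCCGC, TTTCGCGC, TTTGCCGC and TTTGGCGC, and CACGTG (an E-box), each searched on both strands, with no match overlapping another in these windows.
Mki67, chr7:135716380-135716629, minus strand: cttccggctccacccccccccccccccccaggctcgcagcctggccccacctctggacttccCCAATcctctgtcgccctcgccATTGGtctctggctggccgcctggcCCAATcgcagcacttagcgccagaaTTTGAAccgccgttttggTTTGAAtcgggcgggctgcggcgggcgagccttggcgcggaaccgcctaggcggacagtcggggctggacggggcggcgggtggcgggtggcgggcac
Top2a, chr11:99024190-99024439, minus strand: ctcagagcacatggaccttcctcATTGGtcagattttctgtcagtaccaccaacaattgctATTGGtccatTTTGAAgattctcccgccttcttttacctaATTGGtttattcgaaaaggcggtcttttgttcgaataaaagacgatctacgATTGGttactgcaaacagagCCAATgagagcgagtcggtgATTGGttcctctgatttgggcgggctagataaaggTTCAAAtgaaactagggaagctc
Cdk4, chr10:127063285-127063534, plus strand: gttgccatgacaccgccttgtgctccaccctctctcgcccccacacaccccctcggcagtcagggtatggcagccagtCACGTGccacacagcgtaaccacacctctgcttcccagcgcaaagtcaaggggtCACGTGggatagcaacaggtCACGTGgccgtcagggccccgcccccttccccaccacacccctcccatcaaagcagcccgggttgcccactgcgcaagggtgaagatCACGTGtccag
Mki67 held 2 matches to TTTGAA and 3 to CCAAT, and Top2a held 2 and 6. No other member's window held TTTGAA, which is found in 16.0% of the 32851 windows of this length. CCAAT is found in 33.8% of them, among them Cdkn1b with 2 matches and 1 start site of Ccnd3 with 1 match. The E2F words are found in 1.86%, among them the upstream start of Cdkn2a, with 1 match. Cdk4 held 4 matches to CACGTG, which is found in 6.02% of windows and in no other member's. CACGTG was added to the search after the sequence had been seen. A match describes letters only and is not a bound site.

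The libraries differed in depth before any gene was considered. Mutant 1, mutant 2 and control 2 held 8448466, 9013499 and 36985253 unique molecular identifiers (UMIs, each a counted RNA molecule), and 2940, 2040 and 2283 cells were kept, with medians of 2427, 3851.5 and 14051 UMIs per cell. Control 2 also carries a batch entry of its own in the labels, so genotype, depth and batch entry cannot be told apart, and no test between genotypes was made. No cell barcode was shared between any pair of libraries. Below, 3 values side by side stand for mutant 1, mutant 2 and control 2, in that order. Cells were classed from their share of hormone UMIs and of non-endocrine marker UMIs, never from a cell cycle gene. This gave 2259, 1544 and 2068 β cells in mutant 1, mutant 2 and control 2, 313, 233 and 46 α cells, 153, 113 and 59 δ cells, and 57, 54 and 73 non-endocrine cells. The non-endocrine cells were endothelial (38, 32 and 36), leukocytes (15, 15 and 13), stromal (2, 6 and 18) or duct (2, 1 and 6), so the class was made up differently in control 2. The β, α and δ markers were detected in their own class, except Ghsr in δ cells of control 2. In non-endocrine cells the stromal markers Pdgfra and Dcn and the duct marker Krt19 were not detected in mutant 1. The duct markers Krt19 and Muc1 were not detected in those of mutant 2. β-cell RNA was present in all classes. In the summed counts, 8 β-cell markers (insulin genes among them) made up 266139, 211039 and 340857 per 1000000 UMIs of δ cells, where 4 δ markers made up 26308, 37919 and 54837. They made up 100163, 73603 and 180549 in α cells, against 181077, 204549 and 162330 for 6 α markers, so in control 2 they exceeded the α markers, and 92642, 77135 and 54115 in non-endocrine cells. Insulin transcripts made up a median of 3.63 to 6.12% of UMIs per cell in α, δ and non-endocrine cells against 39.5 to 54.7% in β cells, and 31, 23 and 11 α, 47, 29 and 19 δ, and 4, 5 and 8 non-endocrine cells also passed the insulin cut. The part of free β-cell RNA or of paired cells in the values below was not tested.

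Few islet cells carried a transcript of a division marker, and those that did were mostly β cells, the largest class. An Mki67 or Top2a UMI was found in 17 of 2259 β cells of mutant 1 (0.753%, exact binomial 95% interval 0.439 to 1.20%), 19 of 1544 of mutant 2 (1.23%, 0.742 to 1.92%) and 37 of 2068 of control 2 (1.79%, 1.26 to 2.46%). The share was highest in the deepest library. Its order turned when each cell was thinned to 1000 UMIs, which left 3 of 1900, 5 of 1387 and 1 of 2068 β cells positive (0.158, 0.360 and 0.0484%), with 359, 157 and 0 shallower β cells left out. These are counts of a few molecules, and no difference between genotypes can be read from them. As counts per 1000000 UMIs (CPM, scaled over all library and class sums by TMM, the trimmed mean of M values), Mki67 stood at 3.15, 3.05 and 1.45 in β cells of the 3 libraries, and Top2a at 1.18, 1.44 and 0.949. Intervals here cover counting error only.

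Outside β cells, the division markers were not detected in α cells. None of the 592 α cells of the 3 libraries held an Mki67 or Top2a UMI, which allows a share of cells with such a UMI of up to 0.507% and does not limit the share of cells that express the genes at this depth. At the level of β cells of the same library 4.82 UMIs would have been counted. This level is the share of all UMIs without TMM scaling, unlike the CPM values. Insulin transcripts made up a median of 39.5 to 54.7% of UMIs per β cell. TMM scaling would raise the counts expected in α, δ and non-endocrine cells. In δ cells 3 UMIs were found in 3 of 325 cells, against 2.97 at the β-cell level. Non-endocrine cells held 8 UMIs in 4 of 184 cells (2.17%, 0.595 to 5.47%) against 1.39 at the β-cell level. All 4 were in mutant libraries, 2 of 57 and 2 of 54 cells, and none of the 73 non-endocrine cells of control 2 was positive, which allows up to 4.11% of cells with a UMI. By type, leukocytes gave 2 Mki67 UMIs in mutant 1 and 2 Mki67 and 2 Top2a UMIs in mutant 2, and endothelial cells 1 Mki67 UMI in each. None of 99 pancreatic polypeptide cells was positive, which allows up to 3.03% of cells with a UMI, and 1 of 74 mixed cells was. Among α, δ and non-endocrine cells, no edgeR contrast of Mki67 with β cells passed the threshold (adjusted p = 0.073, 0.56 and 0.13). Without control 2 the non-endocrine contrast passed it (2.62 against 1.71 on the log2 scale, adjusted p = 0.021), from 6 UMIs, and Mki67 passed the level filter only through non-endocrine cells, where it is high.

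**Figure D1:**
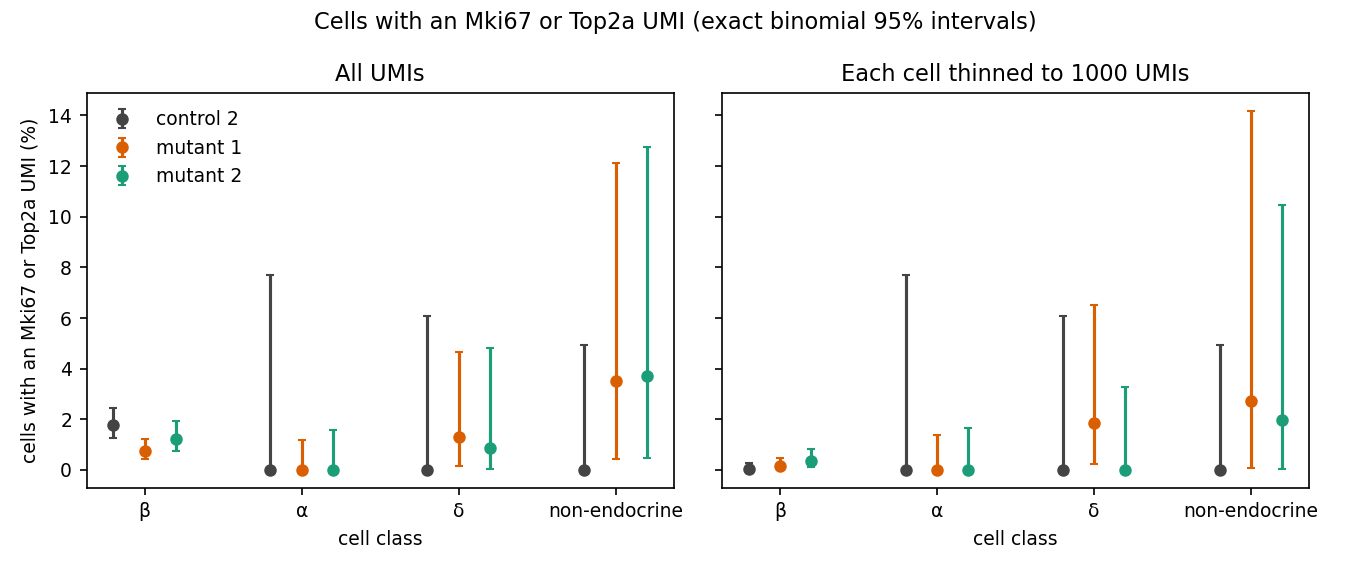
Percent of cells with an Mki67 or Top2a UMI by cell class and library, with all UMIs (left) and after thinning each cell to 1000 UMIs (right); bars are exact binomial 95% intervals. In β cells the control 2 share is the highest with all UMIs (1.79%) and the lowest after thinning (0.0484%), and α cells are at 0 throughout.

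The positive β cells were checked against 39 other genes of S, G2 and M phases that had no part in choosing them. These genes made up 562, 300 and 300 per 1000000 UMIs in positive β cells of the 3 libraries, and 124, 121 and 71.2 in the other β cells. In mutant 2 a single cell, with 7 Mki67 UMIs, held 28 of the 41 list UMIs. Among positive β cells with 1 marker UMI only (14, 18 and 33 cells), the list stood at 324, 106 and 124 per 1000000 UMIs, so that in mutant 2 these cells were not above the other β cells. At least 5 list genes were detected in 2 of 17, 1 of 19 and 5 of 37 positive β cells, and in 1 of 2242, 1 of 1525 and 23 of 2031 others. Both such positive cells of mutant 1 held 8 list genes, and the highest of control 2 held 18, 19 and 19. Positive β cells with a single marker UMI held up to 8 list genes in mutant 1 and 19 in control 2. The median positive β cell had none of the list genes in either mutant library and 1 in control 2, the same as the median of the other β cells. Most positive cells held a single UMI of the markers. A UMI of both markers was seen in 2, 0 and 2 cells. In control 2 positive β cells were deeper than the others, with medians of 22203 against 15263 UMIs, whereas in mutant 1 (2732 against 2716) and mutant 2 (4511 against 4432) they were close. With 2 or more UMIs required, 3, 1 and 4 β cells remained, and their list level was 1477, 1993 and 1156 per 1000000 UMIs. At a matched depth of 1000 UMIs per cell, 2 or more list genes were seen in 3 of 13, 2 of 18 and 0 of 37 of the positive β cells, and in 12 of 1887, 10 of 1369 and 5 of 2031 of the others, so that at this depth the control 2 positive cells did not stand above the rest.

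**Figure D2:**
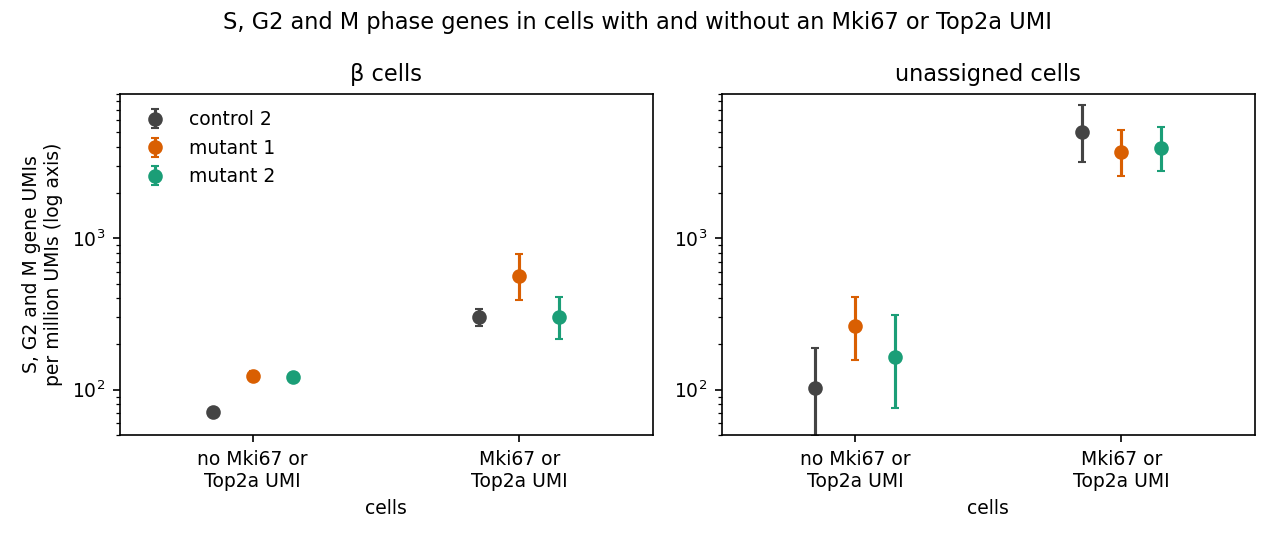
Level of 39 S, G2 and M phase genes per 1000000 UMIs (log axis) in cells without and with an Mki67 or Top2a UMI, for β cells and for cells that passed no class cut, by library; bars are exact Poisson 95% intervals. The pooled level is higher in the positive cells of each library in both panels. In β cells much of it comes from a few cells of each library, 1 cell in mutant 2. In the unassigned cells it reaches 3693 to 5005 per 1000000 UMIs.

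Among cells with at least 1 marker UMI, the highest levels of the list were found in cells outside the named classes. Positive non-endocrine cells stood at 1129 and 2572 per 1000000 UMIs in mutant 1 and mutant 2 (2 cells each). The other non-endocrine cells of these libraries stood at 410 and 351. With 2 or more marker UMIs required, 1 non-endocrine cell of mutant 2 reached 4746. Of 118 cells that passed no hormone or marker cut, 6 were positive (5.08%, 1.89 to 10.7%), with 14 UMIs against 0.610 at the β-cell level, again without TMM scaling. The positive cells were spread over all libraries: 4 of 63 cells in mutant 1, 1 of 39 in mutant 2 and 1 of 16 in control 2. Their list level was 3693, 3928 and 5005 per 1000000 UMIs, against 262, 165 and 103 in the unassigned cells without a marker. The single positive cell of mutant 2 held 4 Mki67 UMIs and 20 list genes in 9673 UMIs, with 9 duct marker UMIs, 3 endothelial and 3 leukocyte. That of control 2 held 3 Mki67 UMIs and 10 list genes, with 17 Schwann cell marker UMIs. These few cells are given by their genes and were not assigned to a type.

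D-type cyclins were detected in every class, and they differed in where they were highest. Summed UMIs of each class and library were compared with β cells by edgeR's quasi-likelihood test with library as a block (12 sums, Benjamini-Hochberg adjusted p under 0.05). TMM factors were 0.733, 0.747 and 0.573 for β cells and 0.936 to 1.39 for the other classes, which raises β-cell levels against those classes. No alternative of this test divided by the UMI total alone. Of the 10 members 8 passed the filter of 5 CPM on the mean over the sums, and Top2a and Cdkn2a did not. In α cells 2 members were higher and 2 lower than in β cells, where 10.1% and 11.3% of the 11570 genes tested were. In δ cells 1 was higher and 1 lower (5.34% and 5.53% of genes). In non-endocrine cells 3 were higher and 2 lower (23.1% and 23.7% of genes). Mki67 and Cdkn1c passed the filter only through non-endocrine cells, and of the other 6 members 2 were higher and 2 lower there. With library as a block, p-values set a class difference against the spread of sums within libraries, mutant and control together. edgeR estimates this spread with the help of the other genes, so it is not the spread of 1 gene between libraries. For Cdk4 in α cells, with an SE of 0.19, the differences from β cells were -0.87, -0.92 and 0.14. Nothing in the labels says whether the mutant libraries came from separate pools of animals, so a spread between libraries may not be one between animals. Without the library block the non-endocrine calls were kept, whereas several α and δ calls were not. Ccnd1, Cdk4 and Ccnd3 in α cells (edgeR adjusted p = 0.27, 0.39 and 0.27) and Ccnd2 and Ccnd3 in δ cells (0.43 and 0.34) missed the threshold. After thinning to 1000 UMIs Cdk4, Ccnd3 and Cdkn1c in α cells (0.075, 0.41 and 0.31) and Ccnd3 in δ cells (0.33) missed it too. So did Cdkn1a (0.20) and Ccnd3 (0.85) in non-endocrine cells, and the sign of Ccnd3 turned there.

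Ccnd2, the cyclin that β cells depend on for growth after birth, was abundant in all endocrine classes and lower in non-endocrine cells. Its level in β cells was 1365, 1380 and 1102 CPM in mutant 1, mutant 2 and control 2, in α cells 1201, 1216 and 1106, in δ cells 986, 911 and 811, and in non-endocrine cells 523, 412 and 427. With TMM scaling every non-endocrine value lay below every endocrine one, and every δ value below the β and α values. As a share of all UMIs, without that scaling, Ccnd2 was higher in δ and α cells than in β cells of each library. Non-endocrine cells stayed below β cells of the same library. A Ccnd2 UMI was seen in 80.7, 88.7 and 94.9% of β cells and in 61.4, 59.3 and 74.0% of non-endocrine cells. After thinning to 1000 UMIs, with the libraries together, it was seen in 55.1% of β, 66.5% of α, 61.9% of δ and 42.9% of non-endocrine cells. The log2 difference from β cells was -1.49 ± 0.17 (SE) in non-endocrine cells (edgeR adjusted p = 2.0e-09, the same call in all 14 alternatives) and -0.50 ± 0.16 in δ cells (adjusted p = 0.032). The δ call was lost without mutant 1 (-0.52, adjusted p = 0.27) and without mutant 2 (-0.46, adjusted p = 0.36), with a difference of like size, and with RLE size factors (-0.45, adjusted p = 0.082). When the δ cells past the insulin cut were left out, an alternative chosen after seeing the data, Ccnd2 stood at -0.65 (adjusted p = 0.0054) and Ccnd3 at 0.85 (adjusted p = 0.0065), and Cdk4 (-0.63, adjusted p = 0.046) and Cdkn1a (-2.06, adjusted p = 0.032) passed as well. In α cells the difference was -0.12 ± 0.16 (adjusted p = 0.65).

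Ccnd1, the cyclin that growth factors induce in many tissues, was lowest in α cells. It stood at 92.3, 122 and 144 CPM in α cells of the 3 libraries against 138, 154 and 305 in β cells. With this TMM scaling α was the lowest class within each library, and without it β cells lay lower in mutant 2. In δ cells it stood at 172, 178 and 222 CPM and in non-endocrine cells at 186, 183 and 350. α cells were lower than β cells by a log2 difference of -0.66 ± 0.18 (edgeR adjusted p = 0.0056), and the call was lost without mutant 1 (-0.70, adjusted p = 0.061). The differences were -0.01 ± 0.17 in δ cells (adjusted p = 0.99) and 0.31 ± 0.18 in non-endocrine cells (adjusted p = 0.16). The δ value joined opposite signs, since Ccnd1 was above β cells in mutant 1 and mutant 2 (0.32 and 0.21) and below them in control 2 (-0.46). Within the non-endocrine class Ccnd1 was unevenly spread: in control 2 it stood at 366 per 1000000 UMIs in 36 endothelial cells, 1035 in 18 stromal cells and 91.2 in 13 leukocytes.

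Ccnd3, the third D-type cyclin, was lower in β cells than in other classes in most libraries. It stood at 55.5, 51.6 and 67.6 CPM in β cells of the 3 libraries and at 107, 103 and 118 in non-endocrine cells, and the groups did not overlap. In δ cells it stood at 100, 69.4 and 96.3 CPM and in α cells at 97.1, 92.1 and 62.2, so that control 2 was the only library with α cells below β cells, from 22 UMIs. The log2 difference from β cells was 0.92 ± 0.22 in non-endocrine cells (edgeR adjusted p = 4.6e-04), 0.58 ± 0.19 in α cells (adjusted p = 0.025) and 0.60 ± 0.20 in δ cells (adjusted p = 0.047). The non-endocrine difference turned to -0.15 (adjusted p = 0.85) when cells were thinned to 1000 UMIs. The α call was lost without mutant 1 (0.45, adjusted p = 0.32) or mutant 2 (0.41, adjusted p = 0.42), and the δ call likewise (0.48, adjusted p = 0.39, and 0.66, adjusted p = 0.17). With no filter on low levels both were lost as well (0.44, adjusted p = 0.23, and 0.41, adjusted p = 0.38), and the δ call also missed the threshold without hormone and mitochondrial genes (adjusted p = 0.062), in cells of at least 1000 UMIs (0.068) and with class cuts divided by 2 (0.15). Endothelial cells carried most of the non-endocrine Ccnd3, with 12 of 15, 16 of 18 and 63 of 72 UMIs, and leukocytes gave 0, 1 and 0. Endothelial cells also gave most of all UMIs of the class in each library.

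**Figure D3:**
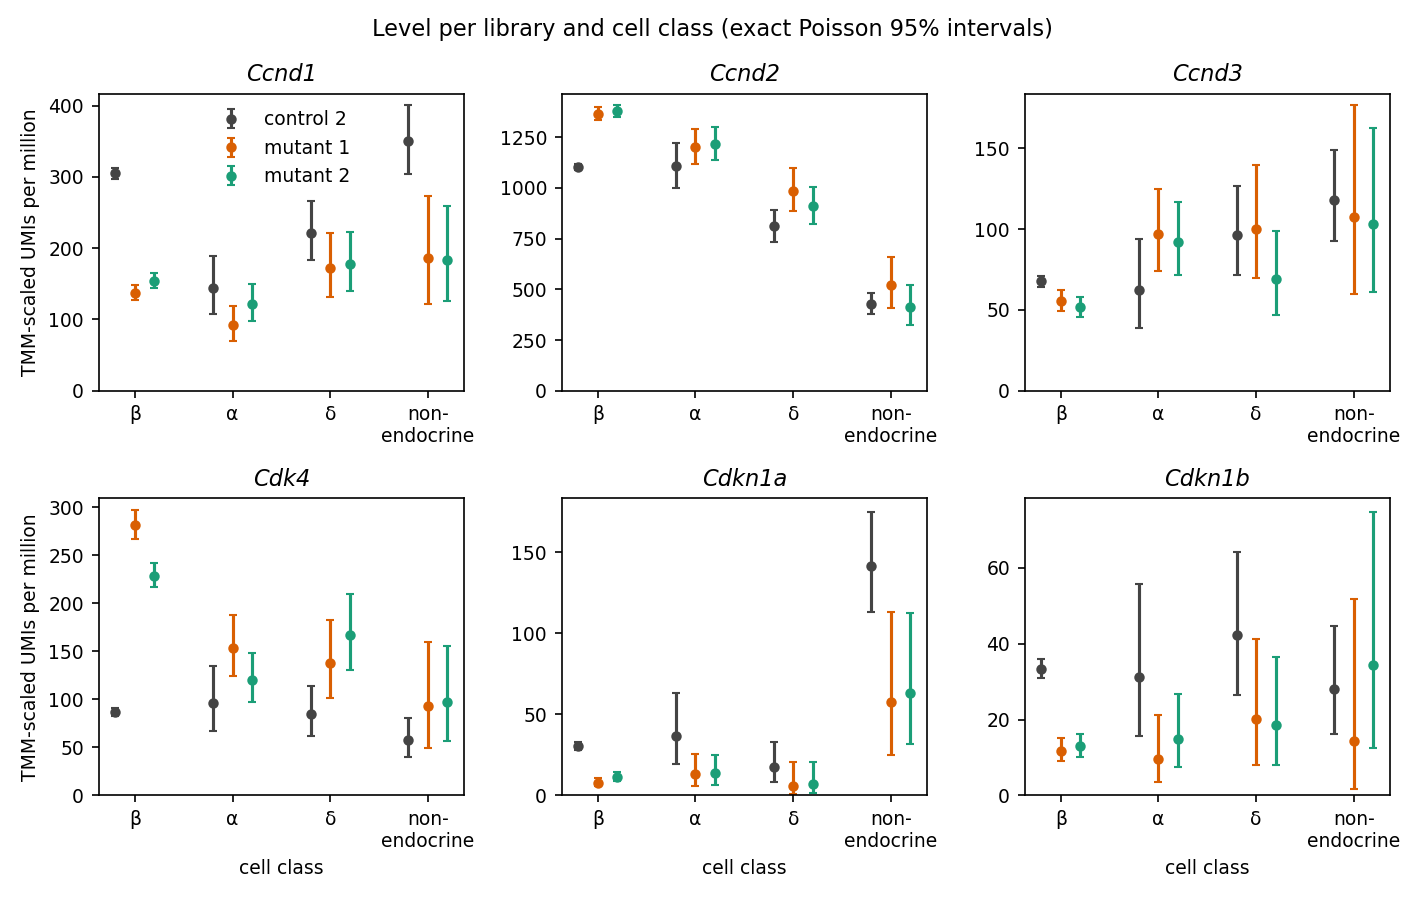
Level of 6 members in TMM-scaled CPM (linear axes from 0) by cell class, 1 point per library with an exact Poisson 95% interval. Ccnd2 is lowest in non-endocrine cells and Cdkn1a highest there in every library, and Cdk4 in β cells is 282 and 229 in the mutant libraries against 87.1 in control 2.

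With TMM scaling Cdk4, the kinase that D-type cyclins activate, was highest in β cells in the mutant libraries, whereas in control 2 the endocrine classes lay close together. Mutant 1, mutant 2 and control 2 stood at 282, 229 and 87.1 CPM in β cells, 154, 121 and 96.2 in α cells, 138, 167 and 84.8 in δ cells and 93.1, 97.3 and 57.5 in non-endocrine cells. Non-endocrine cells were below β cells in each library, and α cells were below them in both mutant libraries (-0.87 and -0.92 on the log2 scale) but not in control 2 (0.14, from 34 UMIs). Without TMM scaling, non-endocrine cells of control 2 and δ cells of mutant 2 held more Cdk4 per 1000000 UMIs than β cells of the same library. The log2 difference from β cells was -1.11 ± 0.23 in non-endocrine cells (edgeR adjusted p = 1.1e-04, the same call in all 14 alternatives), -0.63 ± 0.19 in α cells (adjusted p = 0.013) and -0.52 ± 0.19 in δ cells (adjusted p = 0.078). The α call was lost without mutant 1 (-0.47, adjusted p = 0.28), without mutant 2 (-0.43, adjusted p = 0.35) and in DESeq2 (-0.56, adjusted p = 0.13). Cdk4 overlaps Tspan31 on the opposite strand by 641 bases in GENCODE (GRCm38), and whether counting used strand is not given in the sources used here, so their reads may not be fully told apart. The same holds for Ccnd1 and LTO1 (1771 bases), Ccnd3 and Bysl (361 bases), Ccnd2 and its antisense genes Gm43126 and 9330179D12Rik (994 and 2805 bases), and Cdkn1c and Gm44732 (892 bases). In β cells Tspan31 stood at 54.4, 57.0 and 60.8 per 1000000 UMIs while Cdk4 stood at 204, 169 and 49.5.

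**Figure D4:**
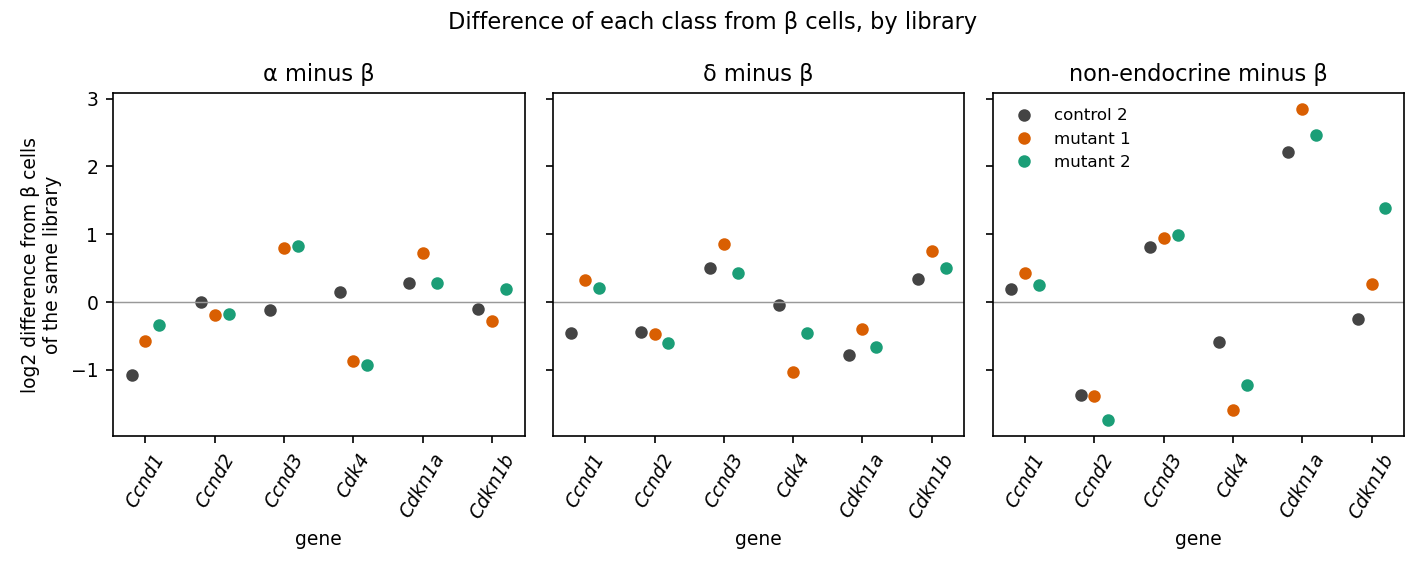
Log2 difference of TMM-scaled levels in α, δ and non-endocrine cells from β cells of the same library for 6 members, 1 point per library. Cdk4 and Ccnd3 in α cells lie on opposite sides of 0 in the mutant libraries and control 2, while Ccnd2, Ccnd3, Cdk4 and Cdkn1a in non-endocrine cells lie on 1 side in all 3.

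Among the inhibitors, Cdkn1a (p21, induced by p53 and other stress signals) was highest in non-endocrine cells. It stood at 57.3, 63.0 and 141 CPM in non-endocrine cells of the 3 libraries against 7.67, 11.1 and 30.2 in β cells. These groups did not overlap, and the control 2 value was the highest in every class. α cells stood at 12.9, 13.5 and 36.8 CPM and δ cells at 5.73, 6.94 and 17.3. The log2 difference from β cells was 2.41 ± 0.27 in non-endocrine cells (edgeR adjusted p = 9.1e-10), 0.40 ± 0.31 in α cells (adjusted p = 0.41) and -0.69 ± 0.39 in δ cells (adjusted p = 0.32). The non-endocrine call was kept in 13 of 14 alternatives and missed the threshold after thinning to 1000 UMIs (1.02, adjusted p = 0.20). Endothelial cells, which gave most of all UMIs of the class, held 7 of 8, 10 of 11 and 77 of 86 of its non-endocrine UMIs.

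Cdkn1c (p57, imprinted and expressed from the maternal allele) was almost absent from β cells. Its UMIs numbered 4, 4 and 2 in β cells of the 3 libraries, 3, 3 and 2 in α cells, 1, 0 and 0 in δ cells and 2, 5 and 6 in non-endocrine cells. Despite far fewer cells, α and non-endocrine cells thus held about as many molecules as β cells, at 4.86, 4.06 and 5.66 CPM and at 14.3, 28.6 and 9.86 CPM against 0.787, 0.719 and 0.0999. The log2 difference from β cells was 5.23 ± 0.86 in non-endocrine cells (edgeR adjusted p = 2.7e-06) and 3.17 ± 0.95 in α cells (adjusted p = 0.013), and with so few UMIs the sizes are loose. Cdkn1c reached the filter only through non-endocrine cells (mean of 7.48 CPM over all sums and 2.08 without them), so its difference there had to be positive. With no filter beyond 1 UMI the differences were 5.02 and 3.05 (adjusted p = 2.4e-07 and 0.024). The α call was lost without each library in turn (adjusted p = 0.13, 0.093 and 0.062 without mutant 1, mutant 2 and control 2). In non-endocrine cells the UMIs came from endothelial cells (2, 5 and 3) and, in control 2, from stromal cells (3). Of 6 imprinted neighbours 2 were tested. Kcnq1, a potassium channel gene, was higher in non-endocrine cells (4.70 ± 0.45, adjusted p = 2.0e-11), through which alone it passed the filter. Kcnq1ot1, the noncoding RNA of the same domain, was called higher in α cells than in β cells and lower in non-endocrine cells (-1.33 ± 0.40, adjusted p = 0.0052).

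Cdkn1b (p27, which holds resting cells in G1) showed no difference between classes that passed the test. It stood at 11.8, 12.9 and 33.4 CPM in β cells of the 3 libraries, 9.71, 14.9 and 31.1 in α cells, 20.1, 18.5 and 42.4 in δ cells and 14.3, 34.4 and 27.9 in non-endocrine cells. δ cells were above β cells in each library, by 0.49 ± 0.32 in log2 (edgeR adjusted p = 0.41). Cdkn2a (p16 and, from another start site, p19Arf, which these gene-level counts do not separate) was found in 8, 9 and 36 β cells, with 8, 10 and 39 UMIs (1.57, 1.80 and 1.95 CPM). Outside β cells it gave 1 UMI in δ cells and 2 in non-endocrine cells, all in control 2, 2 in the 74 mixed cells, and 0 in α cells, where 0 counts allow up to 4.06 to 8.49 CPM. At this depth Cdkn2a could not be compared between classes.

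Of the wider pathway, described by lists of genes, the most calls were in non-endocrine cells, as over all genes. Of 13 pocket protein and E2F genes 9 were tested, and in non-endocrine cells Rb1, which restrains E2F, was higher (2.47 ± 0.35, edgeR adjusted p = 1.4e-07) with E2f3 (1.62 ± 0.52, adjusted p = 0.0096), whereas E2f1 (-2.45 ± 0.62, adjusted p = 0.0012) and its partner Tfdp1 (-1.55 ± 0.43, adjusted p = 0.0028) were lower. E2f1 was also lower in α cells (-1.49 ± 0.42, adjusted p = 0.0087) and δ cells (-1.40 ± 0.45, adjusted p = 0.036), the only list member to pass there. Of 10 other G1 kinases and inhibitors 6 were tested, and 3 were higher and 1 lower in non-endocrine cells: Cdk6, the partner kinase of Cdk4 (3.20 ± 0.46, adjusted p = 2.0e-07), the antiproliferative Btg1 (1.07 ± 0.21, adjusted p = 5.6e-05) and Btg2 (0.49 ± 0.18, adjusted p = 0.022), and Cks1b (-3.38 ± 0.78, adjusted p = 3.9e-04), a Cdk-binding subunit. In α cells Btg1 was lower (-0.71 ± 0.23, adjusted p = 0.022) and Btg2 higher (0.55 ± 0.16, adjusted p = 0.012), and none of the 6 passed in δ cells. Cdk6, like Ezh2 and Phlda3 named below, passed the level filter only through non-endocrine cells. Of the 5 tested G1 genes that passed it without those cells, 2 were higher and 1 lower there.

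Of the 39 S, G2 and M phase genes 7 passed the filter. Stmn1, a tubulin regulator (3.82 ± 0.61 in non-endocrine cells, edgeR adjusted p = 1.7e-06), passed it only through non-endocrine cells, and of the other 6 genes 4 were higher there and none lower. Among them, the helicase subunit Mcm6 (2.25 ± 0.48, adjusted p = 1.5e-04), the spindle motor Kif11 (1.86 ± 0.77, adjusted p = 0.045) and the replication clamp Pcna (1.29 ± 0.22, adjusted p = 5.8e-06) were higher. In α cells Kif11 was the single call (2.05 ± 0.56, adjusted p = 0.0063), and in δ cells there was none. Of the upstream regulators of the inhibitors, all 6 of which were tested, the Polycomb gene Ezh2 (2.62 ± 0.45, adjusted p = 4.8e-06) and Foxo1 (1.06 ± 0.24, adjusted p = 2.7e-04) were higher in non-endocrine cells, while α cells had less Bmi1, a Polycomb gene that represses Cdkn2a (-1.87 ± 0.41, adjusted p = 6.4e-04), and more Kmt2a (0.84 ± 0.19, adjusted p = 9.8e-04). Of 10 p53 targets 9 were tested, and in non-endocrine cells 3 were higher, among them Plk2 (5.07 ± 0.23, adjusted p = 2.9e-21) and Phlda3 (2.85 ± 0.55, adjusted p = 3.1e-05), and 4 lower, among them Trp53inp1 (-1.92 ± 0.34, adjusted p = 1.2e-05) and Sesn2 (-1.69 ± 0.49, adjusted p = 0.0044). In α cells Trp53inp1 (1.35 ± 0.19, adjusted p = 4.6e-07) and Plk2 (1.28 ± 0.31, adjusted p = 0.0022) were higher and Ccng1 (-0.77 ± 0.20, adjusted p = 0.0050) lower, and in δ cells Zmat3 (-1.31 ± 0.38, adjusted p = 0.019) and Ccng1 (-0.85 ± 0.22, adjusted p = 0.0069) were lower. Without non-endocrine cells 4 of the 6 upstream regulators and 8 of the 9 p53 targets passed the filter. Of these, 1 upstream regulator was higher and 0 lower in non-endocrine cells, and 2 p53 targets were higher and 4 lower. Of all genes tested, 23.1% were higher and 23.7% lower in non-endocrine cells. The part of p53 in the Cdkn1a difference was not tested. The immediate early genes that cell dissociation can induce were higher in 6 of 7 cases in α cells and 4 of 7 in non-endocrine cells and none in δ cells, with medians of 0.87 in α cells and 0.96 in non-endocrine cells, and their part in the Cdkn1a difference was not tested.

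Between genotypes only ratios could be given, because 1 control library was analysed. The log2 ratio of each mutant library to control 2 was taken within a class with TMM scaling of its 3 sums, so it is not the quotient of the CPM levels above, and a gene was called by size where both ratios passed 0.5 in the same direction and its mean was at least 20 CPM. In β cells 1 member was called higher and 2 lower of 4 counted, where 14.2% and 32.8% of 4752 genes were. The median gene stood at -0.21 in mutant 1 and -0.23 in mutant 2, and at 0.41 and 0.39 when UMIs were divided by the library total alone, and members are given beside that shift.

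Cdk4 had the highest ratio of the counted members in β cells. Its UMIs numbered 1431, 1273 and 1743 in mutant 1, mutant 2 and control 2, although control 2 held several times the UMIs of either mutant library. The log2 ratios to control 2 were 1.46 and 1.18, or 1.67 and 1.40 above the median gene, and 97.1% of genes had a lower mean ratio. The call was kept in all 11 alternatives, with mean ratios of 1.37 after thinning to 1000 UMIs and 1.59 among cells of 3000 to 6000 UMIs. In cells thinned to 1000 UMIs a Cdk4 UMI was seen in 17.3, 16.2 and 5.75% of β cells. Ratios were also past 0.5 in δ cells (48, 72 and 44 UMIs, 0.63 and 0.91) and non-endocrine cells (13, 17 and 35 UMIs, 0.66 and 0.62), and in α cells they were 0.74 and 0.39. The δ and non-endocrine calls were kept in 10 and 9 of 11 alternatives. In non-endocrine cells the counting intervals overlapped (67.8 to 218 and 72.3 to 199 CPM against 55.1 to 110 in control 2). In δ cells that of mutant 1 (106 to 191 CPM) overlapped control 2 (67.2 to 124), and that of mutant 2 (138 to 222) did not. The ratios of Tspan31 in β cells were -0.74 and -0.68, on the other side of 0 from Cdk4.

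The D-type cyclins did not move together in β cells. Ccnd1 gave 700, 858 and 6105 UMIs in mutant 1, mutant 2 and control 2, with ratios of -1.38 and -1.20. Relative to the median gene they were -1.17 and -0.97, and 11.1% of genes had a lower mean ratio than Ccnd1. The Ccnd1 call was kept in 10 of 11 alternatives and fell short among cells of 3000 to 6000 UMIs (-0.50 and -0.46). Ccnd2 gave 6937, 7679 and 22063 UMIs and ratios of 0.07 and 0.11, which were not called, and was called higher when UMIs were divided by the library total (0.66 and 0.70) and among cells of 3000 to 6000 UMIs (0.84 and 0.77). Ccnd3 gave 282, 287 and 1354 UMIs and ratios of -0.52 and -0.60, just past the size limit, and 33.1% of genes had a lower mean ratio. Its call was kept in 6 of 11 alternatives, and its mean ratio turned to 0.03 by library total and 0.21 among cells of 3000 to 6000 UMIs. Outside β cells, 1 member was called higher and 1 lower in α cells (21.2% and 13.2% of genes), 1 and 1 in δ cells (15.7% and 19.4%), and 1 and 2 in non-endocrine cells (9.94% and 21.6%). Among them, Ccnd1 was lower in non-endocrine cells (-0.91 and -1.03), where 74 of its UMIs in control 2 came from 18 stromal cells, against 0 and 12 from 2 and 6 stromal cells in the mutant libraries, and the part of this make-up was not tested. Ccnd3 was higher in α cells (60, 68 and 22 UMIs, 0.70 and 0.62), a call kept in 9 of 11 alternatives. Its counting intervals there overlapped, at 74.7 to 126, 72.0 to 118 and 37.4 to 90.4 CPM.

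Of the Cip/Kip inhibitors, Cdkn1a and Cdkn1b had lower ratios in β cells, at levels under the 20 CPM needed for a call. Cdkn1c lay on the other side of 0 (1.99 and 1.89), from 4, 4 and 2 UMIs. Cdkn1a gave 39, 62 and 604 UMIs in β cells of the 3 libraries, and ratios of -2.19 and -1.64. Cdkn1b gave 60, 72 and 668 UMIs and ratios of -1.72 and -1.57. Of the 4752 genes of at least 20 CPM, 3.45% and 5.89% had a lower mean ratio than Cdkn1a and Cdkn1b. With a minimum of 5 CPM both were called lower, as were 3342 of the 9563 genes then counted, where the median gene stood at -0.30 and -0.28. Cdkn1a was also lower in α cells (8, 10 and 13 UMIs, -1.32 and -1.27) and non-endocrine cells (8, 11 and 86 UMIs, -1.26 and -1.23), but its mean ratio in non-endocrine cells turned to 0.83 after thinning and that in α cells to 0.69 among cells of 3000 to 6000 UMIs. Cdkn1b was lower in δ cells (7, 8 and 22 UMIs, -1.05 and -1.14), a call kept in all 11 alternatives. Its counting intervals there overlapped, at 8.45 to 43.3 CPM in mutant 1, 8.45 to 38.6 in mutant 2 and 29.0 to 70.0 in control 2. In β cells thinned to 1000 UMIs a Cdkn1a UMI was found in 0.789, 1.15 and 2.22% of cells, and a Cdkn1b UMI in 1.11, 0.937 and 1.89%. Mki67 (0.85 and 0.82), Top2a (0.07 and 0.36) and Cdkn2a (-0.51 and -0.31) rested on 39 UMIs or fewer in each library.

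**Figure D5:**
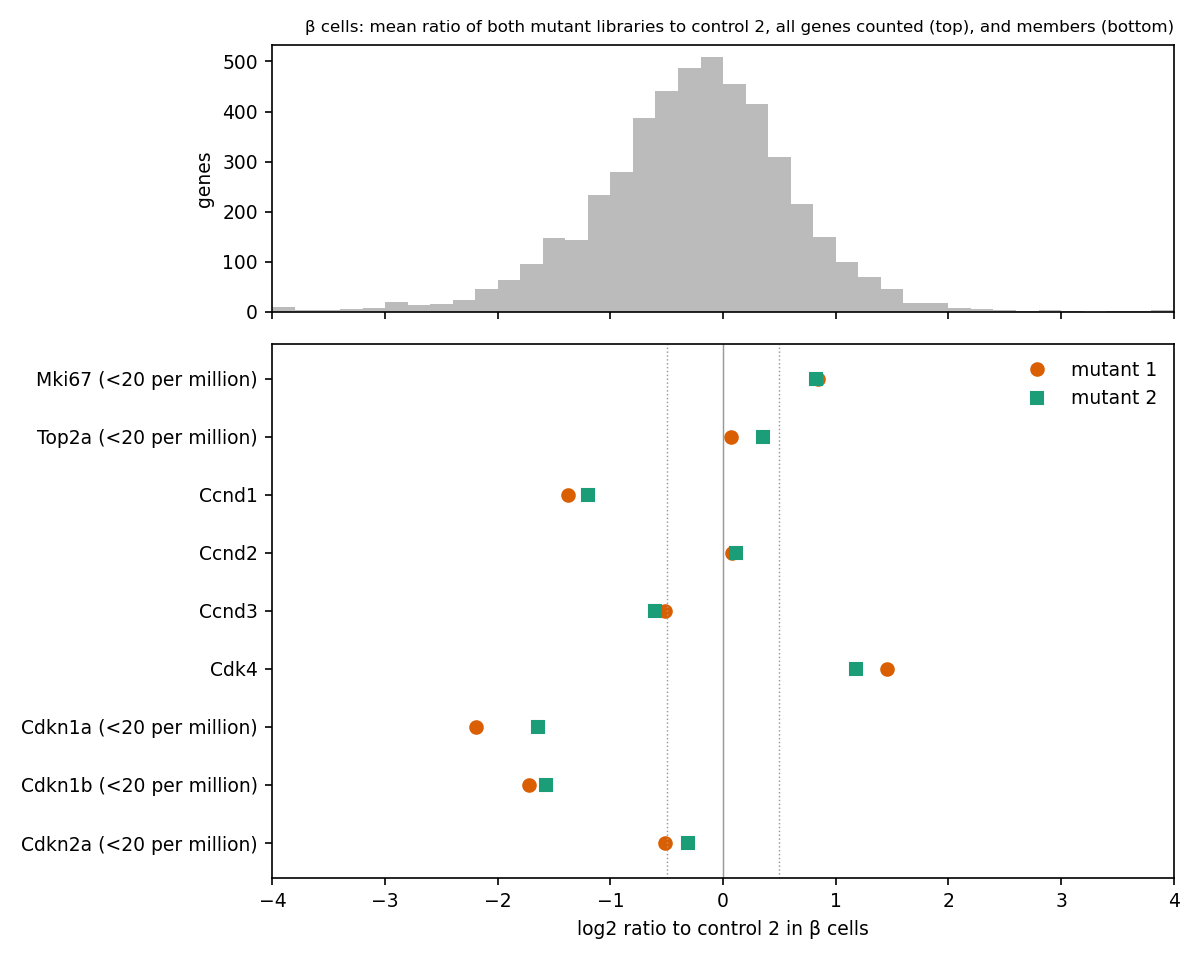
Log2 ratio of the mutant libraries to control 2 in β cells: the distribution of the mean ratio over the 4752 genes counted (top, bins of 0.2, the end bins holding genes beyond them), and 9 members in each mutant library (bottom, dotted lines at the size limit of 0.5). Cdk4 lies to the right of the bulk of genes at 1.46 and 1.18. Ccnd1 lies in the lower part of the distribution at -1.38 and -1.20, with 11.1% of genes below its mean ratio, and Ccnd2 lies near 0. Cdkn1c, with 2 to 4 UMIs a library, is not drawn.

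Genes around the members showed ratios of both signs in β cells. Over all 4752 genes counted, 14.2% were called higher and 32.8% lower, and the median gene stood at -0.21 and -0.23. The antiproliferative genes Btg1 (-1.73 and -1.41) and Btg2 (-0.77 and -0.51) were both called lower, the 2 counted of 10 other G1 kinases and inhibitors, as were Kmt2a (-1.01 and -0.91) and Foxo1 (-0.80 and -0.66), the 2 counted of 6 upstream regulators. Pcna, the 1 counted of 39 S, G2 and M phase genes, was higher (0.74 and 0.65). Of the p53 targets 4 were counted, Bax (1.10 and 0.93) was higher and Trp53inp1 (-0.60 and -0.69) lower. Kcnq1ot1, beside Cdkn1c, was lower (-1.85 and -1.65). Of the 7 dissociation genes Fos (1.16 and 1.14), Ier2 (1.19 and 1.03) and Egr1 (0.96 and 0.91) were higher and Jun (-0.99 and -0.72) lower in β cells, and their part in the members' ratios was not tested.

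The genes whose levels followed a member most closely over the 12 sums are given as a description, since the sums share libraries, depth and scaling. For Ccnd2 they were Sphkap (Pearson's r = 0.981), Pabpc4 (0.978) and Cpe (0.976), for Cdk4 Lars2 (0.965), Psma1 (0.959) and Mt2 (0.948), and for Ccnd1 Ece1 (0.931), Mib1 (0.924) and Fam174b (0.922). For Cdkn1a they were Ptp4a2 (0.990), Clic4 (0.978) and Smad7 (0.966). For Ccnd3, Uchl1 (0.887) came first, followed by Mfsd14b (0.881) and Itgb1 (0.877), and for Cdkn1b 4933434E20Rik (0.923), Edf1 (0.897) and Nckap1 (0.885). All 6552 genes of at least 20 CPM were compared.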

How the data were processed

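The authors deposited, for each library analysed here, a matrix of raw UMI counts (genes by cells) from droplet sequencing, with Seurat and build GRCm39 named in the submitters' processing notes; whether counting used strand is not given in the sources used here. Cells with at least 500 UMIs, at least 100 genes and at most 10% mitochondrial UMIs were kept. For each hormone and library a cut was set at the least dense point of the share of UMIs, non-endocrine cells were cut likewise on marker genes, and cells past more than 1 of the glucagon, somatostatin and pancreatic polypeptide cuts were left out as mixed. No doublet caller was run. Counts were summed per library and class and compared with edgeR 4.0.16 (R 4.3.3; quasi-likelihood test, TMM, library as a block, mean of at least 5 CPM, Benjamini-Hochberg adjusted p under 0.05), which was tested on simulated data first. DESeq2 1.42.0 was an alternative. A prior count of 1 was added for the ratios to control 2. Shares have exact Clopper-Pearson 95% intervals, thinning drew 1000 UMIs per cell, and a count of 0 is given with the level that 3 counts would reach. Cells were handled in Python 3.11.15 with numpy 2.4.6, scipy 1.17.1 and pandas 2.3.3. The named genes are the 10 members, at most 4 genes per list with the largest differences among those called, and the 3 genes most like a member. The members and lists were chosen with earlier results of these data known. Of control 1, 2417 cell barcodes were at hand, and its expression was not analysed here.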

Additional observations from a re-analysis of the deposited data

Results flagged for a closer look

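Among members tested with at least 3 UMIs in the class and in β cells of every library, 4 had a difference from β cells of one sign in both mutant libraries and the other in control 2, and the differences between libraries were not tested. Ccnd3 in α cells stood above β cells by 0.80 and 0.83 on the log2 scale in mutant 1 and mutant 2 and below them in control 2 (-0.12, 22 UMIs). Cdk4 in α cells stood at -0.87 and -0.92 in the mutant libraries and at 0.14 in control 2. Ccnd2 in α cells stood at -0.18 and -0.18 in the mutant libraries and at 0.0048 in control 2. Ccnd1 in δ cells stood at 0.32 and 0.21 in the mutant libraries and at -0.46 in control 2. Depth, batch entry and genotype all set control 2 apart and cannot be told apart, and this library holds 46 α and 59 δ cells. Its α-cell counting intervals for Ccnd3 (39.0 to 94.2 CPM), Cdk4 (66.6 to 134) and Ccnd2 (999 to 1221) held the β-cell levels (67.6, 87.1 and 1102). The δ-cell interval for Ccnd1 (183 to 266 CPM) lay below the β-cell level (305). How many of all genes changed sign in this way was not counted. These differences are TMM-scaled. Without that scaling Ccnd3 and Ccnd2 in α cells and Ccnd1 in δ cells stood above β cells in each library.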

How the results depend on the processing

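No paired analysis was possible because control 1, which shares its number with mutant 1, was not analysed here, so that genotypes have 1 shared number. The library block of the class contrasts was removed instead: without it 695 genes differed in α cells (1 member) and 338 in δ cells (0 members), against 2472 (4) and 1258 (2) with the block.

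Of the class contrasts, those of non-endocrine cells held most often. Leaving out 1 library gave 1245 to 3180 genes and 0 to 3 members in α cells, 633 to 1576 genes and 0 to 3 members in δ cells, and 3995 to 4809 genes and 5 to 6 members in non-endocrine cells, against 5407 and 5. Thinning cells to 1000 UMIs gave 1212, 732 and 3405 genes and 1, 1 and 3 members in α, δ and non-endocrine cells. In δ cells 1 member was called with RLE size factors, with cells of at least 1000 UMIs, with class cuts divided by 2 and without hormone and mitochondrial genes, and 4 when non-β cells past the insulin cut were left out, chosen after seeing the data. The shares of β cells with a division marker moved to 0.158, 0.360 and 0.0484% with thinning and to 0.133, 0.0648 and 0.193% with at least 2 UMIs required, where the list level was 1477, 1993 and 1156 per 1000000 UMIs. With a minimum of 5 CPM 4577 of 9563 genes and 5 of 6 members were called in β-cell ratios, against 2234 of 4752 and 3 of 4. Of the 4577 genes 1235 were higher and 3342 lower. The causes were not tested.

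Signs turned for differences near 0 or from few UMIs. Ccnd1 in δ cells (-0.01) became 0.051 with RLE size factors, 0.056 in DESeq2, 0.0083 with filterByExpr, 0.0037 with class cuts times 2, and -0.14 to 0.29 when 1 library was left out (0.29 without control 2). Cdkn1b in α cells (-0.05) became 0.024 without mutant 1, 0.035 without control 2 and 0.35 when thinned, and in non-endocrine cells (0.21) -0.17 without mutant 2 (up to 1.03 without control 2). Cdkn1c in δ cells (0.78) became -3.33 without mutant 1 (1.76 without mutant 2), -1.60 when thinned and -3.14 in cells of at least 1000 UMIs. Thinning turned Cdkn1a in α cells to -0.28, Mki67 in δ cells to 0.13 and Ccnd3 in non-endocrine cells to -0.15. Among mean ratios to control 2, Ccnd3 in β cells became 0.027 by library total and 0.21 in cells of 3000 to 6000 UMIs, Cdkn1a in α cells 0.69 in cells of that depth, and Cdkn1a in non-endocrine cells 0.83 when thinned.

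Mki67 in non-endocrine cells passed the threshold without control 2 only. Depth limits the division markers, Cdkn1c and Cdkn2a most, which rest on 39 UMIs or fewer per class and library.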

Other observations

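Beyond β cells, several genes around the members had ratios past the size limit in both mutant libraries. Bax, a p53 target that promotes cell death, was higher in every class: 1.10 and 0.93 in β cells, 1.06 and 0.88 in α cells, 1.18 and 1.10 in δ cells, and 0.98 and 0.76 in non-endocrine cells. Btg1, an antiproliferative gene, was lower in δ cells (-1.78 and -1.20) and non-endocrine cells (-2.41 and -1.16), as in β cells. Rrm1, a subunit of the enzyme that makes deoxyribonucleotides, was higher in α cells (0.86 and 0.77) and δ cells (1.76 and 0.72). Of the dissociation genes 5 of 7 were lower in δ cells, among them Jun (-1.33 and -1.29) and Atf3 (-1.26 and -1.11), whereas in α cells 1 was higher, Fos (0.73 and 0.72). These ratios rest on 1 control library and have no test. The share of all genes called higher and lower was 14.2% and 32.8% in β cells and 21.2% and 13.2% in α cells. It was 15.7% and 19.4% in δ cells and 9.94% and 21.6% in non-endocrine cells.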
